A study of Mus musculus with 29 samples.

Results

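The luminal and the basal-like domains of mixed bladder lesions were compared by RNA-seq, with 3 libraries of each domain, 6 of the 29 samples of the series. The members were taken as the libraries of the table that sets both domains side by side, and nothing measured entered that choice. Mixed lesions carry a luminal domain on top and a basal-like domain at the bottom. Both domains came from mice labelled K5VP16;Pparg+/-, in which a tamoxifen-inducible Cre under the Krt5 promoter switches on, in basal cells, a Pparg1 fused to the VP16 activation domain. The transgene sits at Rosa26 behind a CAG promoter with an IRES-EGFP and acts without ligand, and the mice of both domains carry it. The mice drank the carcinogen BBN at 0.05%, labelled 5 months, for up to 24 weeks, and lesions were collected 4 months after induction. Per the methods, 4-hydroxytamoxifen was put for induction into the bladder under ultrasound at 8 to 12 weeks of age, and the age at collection is not given in the sources used here. Tumor tissue was captured by laser from 5 µm frozen sections, where the domains were told apart by their histology. The study characterised the domains by staining of Krt14, Krt6a, Pparg and Gfp. It saw less Pparg in the basal-like part than in the luminal part, and Gfp in both. Krt14, Krt6a and Pparg are therefore described here as a check of the label and not as a finding. Basal tumors of BBN-treated mice labelled wild type, 3 libraries in another table, are given at the end for orientation. The paper names its controls with basal tumors VP16;Ppargfl/fl or K5;mTmG, and the label does not say which of these gave the libraries.

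Urothelium is layered. Basal cells rest on the basement membrane, express Krt5 and Krt14 and hold progenitor activity, whereas umbrella cells at the lumen make uroplakins, membrane proteins that form the urothelial plaque, and Krt20. Pparg is a nuclear receptor that binds DNA with an RXR partner, takes fatty acids and their derivatives as ligands, and drives lipid metabolism and urothelial differentiation together with Gata3 and Foxa1. Luminal bladder cancers are known for high activity of this program, and basal-like ones for basal keratins, proliferation and immune infiltrates.

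Values are normalized counts that the authors made with DESeq2, and they are listed in the order CT128, CT143 and CT148 for the luminal domain and CT129, CT144 and CT149 for the basal-like domain, the codes of the libraries in the deposited table. They summed to 53009588, 48742772 and 53904714 per luminal library and to 46860386, 42985095 and 49299308 per basal-like library. The study aimed at 40 M paired reads of 100 bases a library, and the depth reached is not given in the sources used here. Epithelial genes were abundant on both sides. Epcam, an epithelial surface protein, had 6433, 28307 and 19699.9 normalized counts in the luminal libraries and 9641, 33957 and 20863 in the basal-like ones, and the adhesion protein Cdh1 had 16484, 18027 and 15651 and 14159, 16499.5 and 13262. Krt5 was high in all 6 libraries, at 114487, 65842 and 79589 and 104213, 149979.6 and 133436.

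The basal-like domain held more transcripts of the mitotic program and fewer of Pparg, Gata3 and the uroplakins, but no single gene passed the test. Of 35199 genes, 14874 reached 10 normalized counts in 3 or more libraries and were tested with limma after adding 1 and taking log2, which makes the differences of low genes look smaller than they are. With Benjamini-Hochberg adjustment over all of them, 0 genes were called at 0.05 (0%), and the smallest adjusted p was 0.651 (limma). At an unadjusted p under 0.05 there were 757 genes (5.09%), of which 385 (2.59%) were higher and 372 (2.5%) lower in the basal-like domain. With the library pairs assumed from the order of the columns (CT128 with CT129, CT143 with CT144, CT148 with CT149) as a block, limma called 1 gene (0.00672%), Ctse, and 1858 genes (12.5%) had an unadjusted p under 0.05. Without a trend in limma's eBayes 20 genes were called, 14 higher and 6 lower. The labels do not tie the captured regions to animals, and some regions may share an animal. The p-values measure only the spread between these samples, and may be too small where regions of 1 domain share an animal and too large where a luminal and a basal-like region do. Over all genes tested the median log2 difference, basal-like minus luminal, was 0.009, with 50.7% of genes above 0 and 49.3% below. The groups did not overlap in 10.8% of genes, 5.62% higher and 5.14% lower in the basal-like domain, and the difference had the same sign in all 3 assumed pairs in 17.7% of genes upward and 17.6% downward. These shares are the background for the counts of gene lists that follow, and the word called is used below only for an adjusted p under 0.05. The lists and their members were chosen with earlier results of these data known, so the counts beside these shares are a description.

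Pparg had 5427, 5086 and 4116 normalized counts in the luminal libraries and 3230.2, 2902 and 2326 in the basal-like ones. The 3 basal-like libraries all lay below the 3 luminal ones, by a log2 difference of -0.79 (standard error 0.24, limma adjusted p = 0.864, lower in 3 of 3 assumed pairs). Transcripts of the transgene and of the endogenous gene are counted together in these values. Gata3, a zinc finger factor of luminal identity, showed the same order, with 14566, 12802 and 9320.0 against 9240.4, 6602 and 5432 normalized counts and a log2 difference of -0.80 (limma adjusted p = 0.935). For Foxa1, a pioneer factor that opens chromatin for such factors, the groups overlapped, with 6519.9, 6205 and 4973 against 5027, 6693 and 3700.3, a log2 difference of -0.23. The difference of Foxa1 ran from -0.44 to -0.015 on leaving out single libraries. Foxq1, the luminal transcription factor with the highest mean, had 29592, 20962 and 23843 against 13456, 14111 and 13342 normalized counts and did not overlap, with a log2 difference of -0.85 (limma adjusted p = 0.712). Of the 14 luminal transcription factors 10 were lower in the basal-like domain, 3 without overlap, 1 was higher without overlap, and the median was -0.35. In bulk RNA of captured tissue, fewer cells of a type and less RNA per cell cannot be told apart. Among Pparg, its RXR partners and coregulators 11 of 15 were lower, with a median of -0.24 (-0.40 to -0.08 on leaving out single libraries). The coactivator Ppargc1a had 212, 193 and 788 against 3.39, 8.16 and 323 normalized counts, and the corepressor Ncor1, the highest of this list, 5158, 6802 and 5466 against 3251, 5946 and 4686. Both overlapped between groups.

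Uroplakins were lower in the basal-like domain. Upk1b had 76595, 38894 and 60565 normalized counts in the luminal libraries and 31188, 19694 and 27078 in the basal-like ones, without overlap, and a log2 difference of -1.15 (limma adjusted p = 0.789, lower in 3 of 3 assumed pairs). Upk3b had 13695, 7094 and 3049 and 2744, 1425 and 85.6, also without overlap, and a log2 difference of -3.26 (limma adjusted p = 0.935). Its difference ran from -4.25 to -1.75 on leaving out single libraries. The remaining plaque genes varied widely among the luminal libraries. Upk1a had 68915, 1315 and 18781 against 17559.9, 604 and 1336 normalized counts, Upk2 42509, 4777 and 3629 against 9449, 3390.0 and 458, and Upk3a 119575, 3475 and 6611 against 19022, 898 and 6.66. CT128 held the highest value of each of these 3 genes, CT129 held the highest of the basal-like libraries, and the groups overlapped, although each of the 3 was lower in all 3 assumed pairs. Of the 7 genes of the uroplakin list 6 were lower, 5 in all 3 assumed pairs, with a median of -1.88 (-2.86 to -1.04 on leaving out single libraries). The luminal keratins followed, with 5 of 5 lower and a median of -1.11 (-1.55 to -0.46 on leaving out single libraries). Krt7 had 258529.6, 202982 and 210339 against 140490.2, 170094 and 153409 normalized counts without overlap, and Krt18 182042, 103544 and 24118 against 43169.7, 53759 and 4499 with overlap. Krt20, the umbrella cell keratin, had 1178, 3051 and 1151 against 193, 3461 and 579, and CT144 held more of it than any luminal library.

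**Figure D1:**
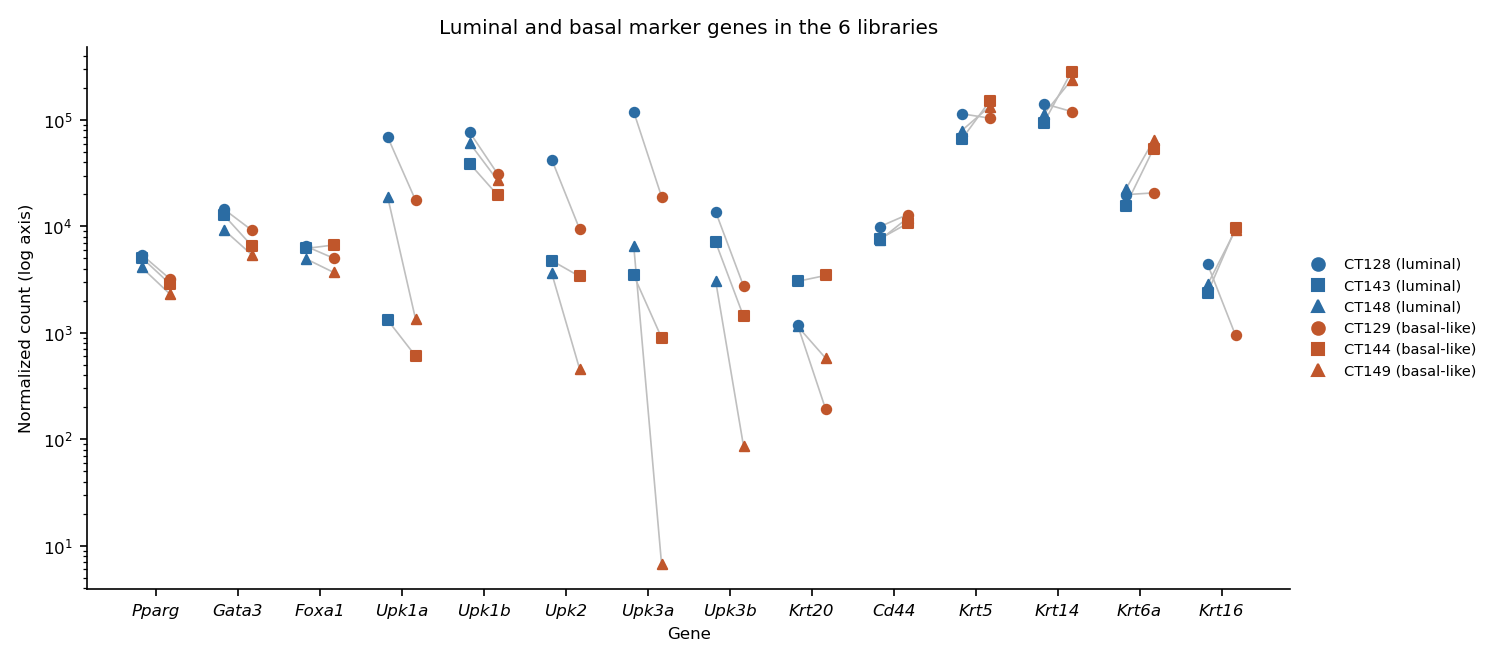
Normalized counts (log axis) of luminal genes on the left and basal genes on the right in each library, with luminal libraries in blue, basal-like libraries in orange and grey lines joining the pairs assumed from column order. Pparg, Gata3, Upk1b and Upk3b were lower in all 3 basal-like libraries than in any luminal one, and Cd44 was higher.

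Basal markers lay the other way. Cd44, a hyaluronan receptor of basal cells, had 9949.8, 7631 and 7434 normalized counts in the luminal libraries and 12926, 10681 and 11992 in the basal-like ones, without overlap, and a log2 difference of 0.52 (limma adjusted p = 0.935, higher in 3 of 3 assumed pairs). Itga6, the integrin chain that anchors basal cells to laminin, had 4189, 4223 and 5006 against 6605, 5799.9 and 8807 and also did not overlap. Of the 16 basal keratins and surface markers 15 were higher in the basal-like domain, 2 without overlap, with a median of 0.50. On leaving out single libraries, 11 to 15 were higher and the median ran from 0.36 to 0.65. In all 3 assumed pairs 7 were higher and 1 was lower, and the lowest log2 difference was -3.05. Krt14 and Krt6a, the keratins that the study stained, overlapped between groups, as did Krt16, which the study named from RNA-seq. Krt14 had 142794, 93592 and 113133 against 120234, 284949 and 238121 normalized counts, Krt6a 19901, 15631 and 22257 against 20657, 53760.3 and 64409.9, and Krt16 4400.2, 2381 and 2849.9 against 949, 9606 and 9262. In CT144 and CT149 all 3 exceeded every luminal library, whereas in CT129 Krt14 and Krt16 did not exceed their values in CT128 and Krt6a exceeded it only slightly. Krt15, the basal keratin with the highest mean, had 169109, 163312 and 406035 against 118743, 195281 and 534984 and was highest in CT148 and CT149.

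Genes of mitosis were higher in the basal-like domain almost throughout their list. Of the 54 genes of the G2/M list 52 were higher, 23 without overlap, 24 at an unadjusted p under 0.05 in limma and 0 called, and 38 were higher in all 3 assumed pairs. The median log2 difference of the list was 1.08, beside 0.009 over all genes. On leaving out single libraries, 50 to 53 of its genes were higher and the median ran from 0.78 to 1.36. Ccna2, cyclin A2, which drives S phase and entry into mitosis, had 544, 696 and 883 normalized counts in the luminal libraries and 2010.5, 3429 and 2219 in the basal-like ones. The lowest basal-like value exceeded the highest luminal one, by a log2 difference of 1.84 between the means (standard error 0.34, limma adjusted p = 0.651). Hmmr, a hyaluronan receptor that also acts at the spindle, had 345, 314 and 506 against 1382, 1742 and 1196, a log2 difference of 1.90 (limma adjusted p = 0.651). Hmgb2, a chromatin protein of dividing cells, had 8682, 5844 and 8082 against 20093, 14682 and 15155, a log2 difference of 1.15 (limma adjusted p = 0.651). Both were without overlap. Tubb4b, a tubulin and the member of the list with the highest mean, overlapped between groups, with 31284, 27311 and 24709 against 22629, 25837 and 33212 normalized counts and a log2 difference of -0.04, which became 0.039 with quantile normalization and 0.0165 with upper-quartile scaling.

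The promoters of the G2/M list were read for the letters of elements known from mitotic genes. Members were searched whatever their difference between the domains, so the shares do not bear on that difference. The CHR, bound by the DREAM and MuvB complexes that time mitotic genes, was searched as TTTGAA and the CCAAT box, bound by NF-Y, as CCAAT, each on both strands, and the pair can share an outermost letter. In the RefSeq promoter table (GRCm38.p6), 46 of the 54 genes matched, with 49 windows. In the 250 bases before the start, 38.8% of these windows held the CHR letters and 79.6% the CCAAT letters, beside 16% and 33.8% of all 32851 windows. A second search, added after these shares had been seen, took in the 50 bases after the start, where the CHR shares became 69.4% of the G2/M windows and 17.9% of all windows. The CCAAT shares in that longer window were 79.6% and 37.4%. Windows of S phase genes, 36 for 32 of the 43 genes, held the CHR letters in 16.7% and the CCAAT letters in 66.7% in either window. The stretches before the start of the 3 named G2/M genes with an entry are shown because 2 of them, Hmmr and Hmgb2, did not overlap between groups and Tubb4b did, 5′ to 3′ with CHR and CCAAT letters of either strand in capitals. Hmmr lies at chr11:40733438-40733687, minus strand, Hmgb2 at chr8:57511593-57511842, plus strand and Tubb4b at chr2:25224703-25224952, minus strand.
Hmmr: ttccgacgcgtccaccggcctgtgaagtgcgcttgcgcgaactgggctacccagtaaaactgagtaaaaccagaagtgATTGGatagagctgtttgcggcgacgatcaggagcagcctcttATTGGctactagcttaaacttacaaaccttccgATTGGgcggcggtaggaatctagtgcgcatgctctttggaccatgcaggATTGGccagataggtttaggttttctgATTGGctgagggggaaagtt
Hmgb2: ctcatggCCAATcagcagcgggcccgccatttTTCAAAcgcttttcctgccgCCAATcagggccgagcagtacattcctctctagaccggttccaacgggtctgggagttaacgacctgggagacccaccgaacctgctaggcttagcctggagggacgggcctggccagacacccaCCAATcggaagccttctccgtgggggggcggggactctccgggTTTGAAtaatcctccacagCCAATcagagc
Tubb4b: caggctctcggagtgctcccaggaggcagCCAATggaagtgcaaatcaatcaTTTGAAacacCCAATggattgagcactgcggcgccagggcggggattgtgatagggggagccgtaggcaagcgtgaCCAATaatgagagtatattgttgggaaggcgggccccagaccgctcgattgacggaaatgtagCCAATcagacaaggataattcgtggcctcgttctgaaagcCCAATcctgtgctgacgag
Hmmr held 5 CCAAT matches and 0 CHR matches before the start, and 1 CHR match in the longer window. Hmgb2 held 4 CCAAT and 2 CHR matches, and Tubb4b 5 CCAAT matches and 1 CHR match. All 3 stretches thus held CCAAT letters, including that of the gene whose groups overlapped, and a match of letters is no evidence of binding.

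S phase genes showed the same direction with a smaller median. Of 43 genes 40 were higher in the basal-like domain, 12 without overlap and 0 called, and the median was 0.61 (0.37 to 0.67 on leaving out single libraries). Uhrf1, which carries DNA methylation through replication, had 410.4, 639 and 302 normalized counts in the luminal libraries and 1252, 2171 and 996 in the basal-like ones, a log2 difference of 1.70 (limma adjusted p = 0.789). Ccne2, cyclin E2, had 216, 158 and 133 against 1081, 708 and 364, a log2 difference of 1.97 (limma adjusted p = 0.871), and the replication clamp Pcna 4755, 4616 and 4459 against 6681, 6529 and 5336. None of the 3 overlapped between groups. Pclaf, a partner of Pcna that is not in the S phase list and was named for its small p, had 1879.8, 1589 and 1721 against 3206, 5927 and 4874, also without overlap. CDK inhibitors, G1 cyclins and p53 targets were split, with 11 of 23 higher and a median of -0.04 (-0.14 to 0.05 on leaving out single libraries, above 0 without CT128 or without CT149, and also with quantile normalization and upper-quartile scaling). The CDK inhibitor Cdkn2b was lower in all 3 basal-like libraries, with 6581, 6223 and 6054 against 3368, 3128 and 3611 normalized counts and a log2 difference of -0.90 (limma adjusted p = 0.651). Pmaip1, a BH3-only death factor and p53 target, had 4299.9, 4631 and 5585 against 2751, 2978 and 2717, without overlap, and Ccnd2, the highest of the list, 27288, 45676 and 27155 against 15661, 37599 and 16715, with overlap.

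**Figure D2:**
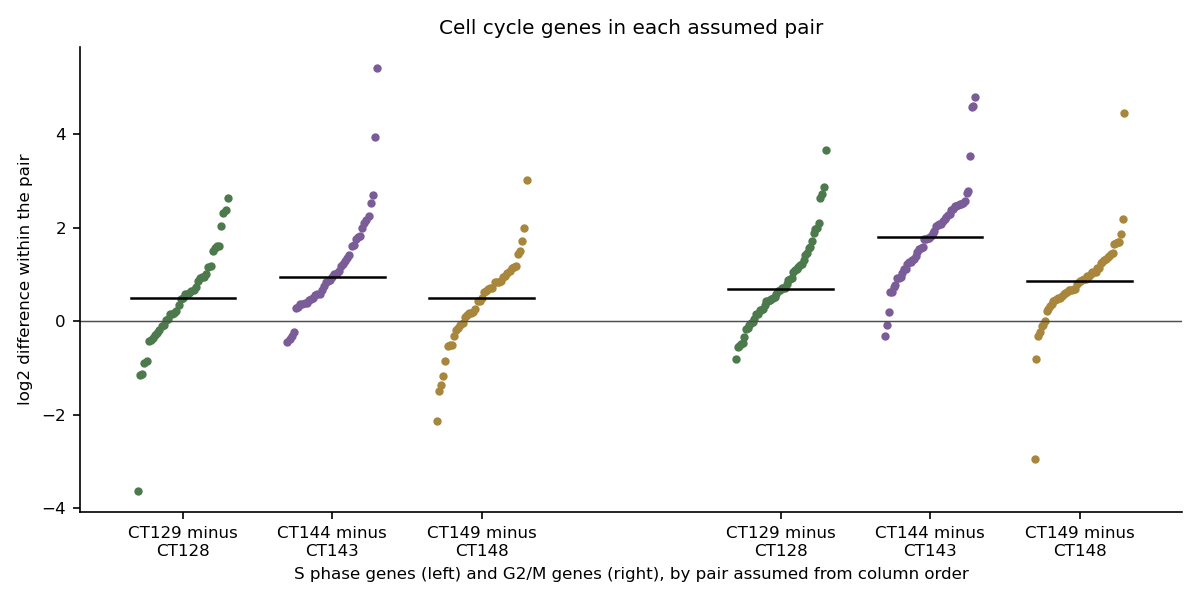
Log2 differences of the 43 S phase genes (left) and the 54 G2/M genes (right) within each pair assumed from column order, with one point per gene and a black bar at the median of each column. The medians lay above 0 in all 3 pairs for both lists, and were highest in CT144 minus CT143.

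Apart from the lists, 10 genes in each direction, some of them also list members, were named for the smallest p among genes without overlap, and none of them was called (limma adjusted p = 0.651 for each). Fgd2, Tmem121, Adgrg5 and Nkain4 passed the filter only through the basal-like libraries and Dmrtc1a only through the luminal ones. Their values are given as a description, and no conclusion is drawn from their p. Fgd2, an exchange factor for the GTPase Cdc42, was nearly absent from the luminal libraries, with 0.938, 0 and 0.871 normalized counts, and had 83.4, 254 and 294 in the basal-like ones. Tmem121 had 0, 0 and 1.1 against 151, 70.2 and 175, and Adgrg5, an adhesion G protein-coupled receptor, 4.7, 3.04 and 5.46 against 252, 191 and 164. Nkain4 was listed at 0 in all luminal libraries and had 202, 30.2 and 77.9 in the basal-like ones. At higher levels, Col7a1, the collagen of anchoring fibrils under basal cells, had 794, 868 and 697 against 1861, 2283 and 2542 normalized counts, a log2 difference of 1.50 (standard error 0.29). The splicing factor Hnrnpa1, which shares sequence with many pseudogenes, had 4964, 4133 and 5918 against 9572, 10181 and 11381. In the other direction, Ctse, the endosomal protease cathepsin E, had 14472, 28223 and 10443 normalized counts in the luminal libraries and 1197, 4435 and 850.2 in the basal-like ones. Its log2 difference was -3.29 (standard error 0.62, limma adjusted p = 0.651, lower in 3 of 3 assumed pairs), and with the assumed pairs as a block it was the called gene, with a limma adjusted p of 0.0358. The secretory carrier protein Scamp5 had 7801, 6246 and 4821 against 2184, 1336 and 759 normalized counts, the SNARE protein Snap25 881, 1628 and 1749 against 100.2, 299 and 141, and the membrane protein plasmolipin, Pllp, 5643, 5584 and 4818 against 1088, 2337 and 1768. In each the highest basal-like value lay below the lowest luminal one. The aspartyl protease Bace2 had 9104, 7153 and 9065 against 3915, 3118 and 3476, the tetraspanin Tspan7 3442, 2519 and 2260.0 against 1151, 930.1 and 1138, and the phosphatase Ptprr 1522, 2779.9 and 3659 against 533, 272 and 739. Shisa9 had 672, 324 and 831 against 6.06, 0.501 and 29.9, and Dmrtc1a 92.6, 221 and 37.6 against 0.983, 0 and 0.

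**Figure D3:**
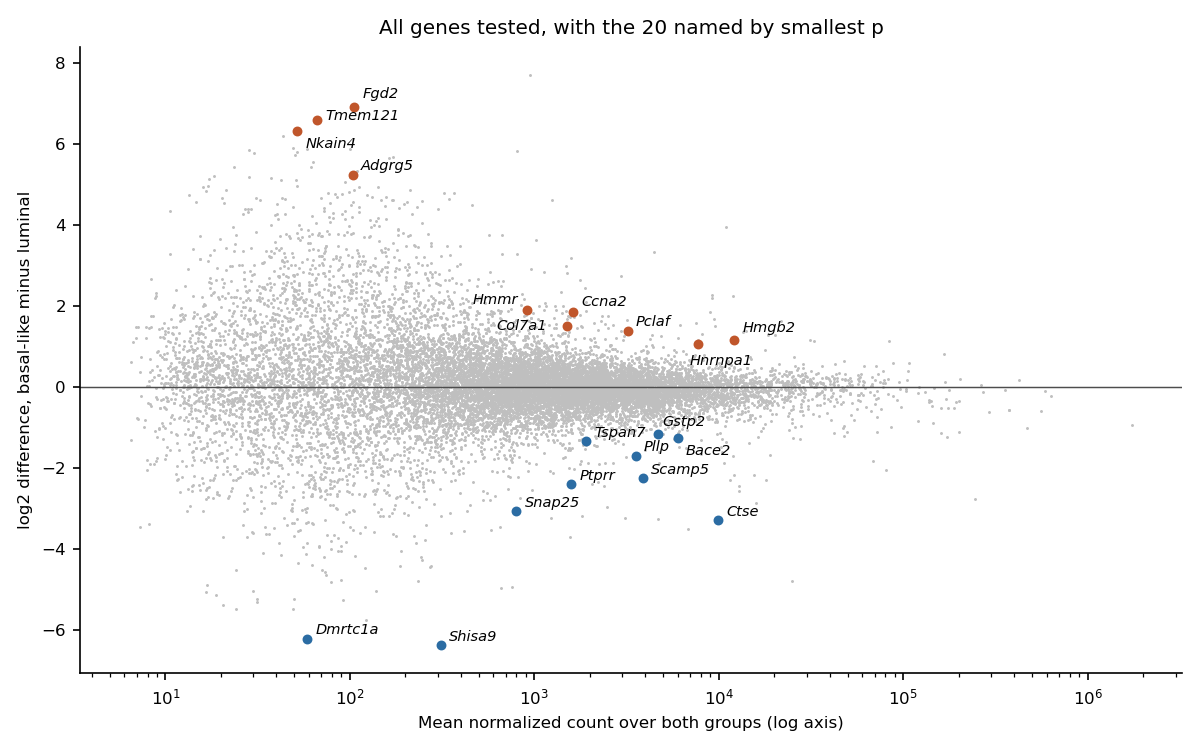
Log2 difference, basal-like minus luminal, of the 14874 genes tested against their mean normalized count (log axis), with the 10 genes named in each direction in orange and blue. The spread is widest among genes of low mean, where Fgd2, Tmem121, Nkain4, Adgrg5 and Dmrtc1a lie.

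Glutathione conjugates electrophiles, and NRF2 controls many of its enzymes. Of 35 glutathione and NRF2 genes 27 were lower in the basal-like domain, 7 without overlap, and 18 were lower in all 3 assumed pairs, with a median of -0.52 (-0.68 to -0.34 on leaving out single libraries). Gstp2, a glutathione transferase that shares sequence with its neighbour Gstp1, had 6184, 8215 and 5089 normalized counts in the luminal libraries and 2806, 2589 and 3151 in the basal-like ones, a log2 difference of -1.17. Hmox1, which degrades heme, had 6750.3, 3784 and 2268 against 1196, 878 and 1132, a log2 difference of -1.87 (limma adjusted p = 0.651). Neither overlapped between groups. Gsto1, the highest of the list, had 326465, 420106 and 429288 against 289118, 469006 and 614919 and overlapped.

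Of 26 genes of fatty acid oxidation and ketogenesis 22 were lower, with a median of -0.34 (-0.36 to -0.31 on leaving out single libraries). Acaa1a, a peroxisomal thiolase, had 9294, 7916 and 7749.9 against 6037, 4073 and 6404 normalized counts, and the mitochondrial thiolase Acaa2 17421, 27674 and 18703 against 12506, 20574 and 11948. Of these 2 only Acaa1a did not overlap. Fatty acid synthesis and elongation genes were lower in 16 of 22, with a median of -0.34 (-0.53 to -0.24 on leaving out single libraries). Fads2, a desaturase and PPAR target, had 1987, 2559.8 and 1906 against 893, 859 and 561 normalized counts, a log2 difference of -1.50 (limma adjusted p = 0.651). Dgat2, which makes triglycerides, had 7839.6, 10172 and 6332 against 4542, 2926 and 2573, a log2 difference of -1.29 (limma adjusted p = 0.651). Both were without overlap, whereas the desaturase Scd2, with 16043, 5514 and 5364 against 14651, 8377 and 6663, overlapped. PPAR targets as a whole were close to evenly split, with 18 of 32 lower and a median of -0.19, which ran from -0.35 to 0.07 on leaving out single libraries and was above 0 without CT128. Fabp4, a fatty acid carrier and the highest of these targets, had 336309, 6538 and 15225 against 201809, 17115 and 3419.7, and both CT128 and CT129 held far more of it than the other libraries. Transport genes of the urine barrier were lower in 9 of 14, with a median of -0.49. The sodium channel subunit Scnn1g had 1109, 239.9 and 207 against 54.9, 16.4 and 4.71 normalized counts, and Scnn1a 353, 172 and 233 against 19, 117 and 70.1, both without overlap. The water channel Aqp3, the highest of the list, had 54551, 35575 and 44834 against 38693, 29250.4 and 37803 and overlapped.

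Adhesion and matrix genes lay in both directions. Of 10 hemidesmosome and laminin-332 genes 7 were higher in the basal-like domain, with a median of 0.16 (0.02 to 0.30 on leaving out single libraries), and Col17a1, the highest, had 12187, 7343 and 12874 against 11612, 9424 and 13363. Desmosome and adherens junction genes were higher in 8 of 14, with a median of 0.11 (-0.17 to 0.19 on leaving out single libraries, below 0 without CT148 or without CT144). Dsc3, a desmosomal cadherin of stratified epithelia, had 397, 473 and 605 normalized counts in the luminal libraries and 1196, 2149 and 1447 in the basal-like ones, a log2 difference of 1.68 (limma adjusted p = 0.651). Ctnnd1, p120 catenin, lay the other way, with 6172, 7547 and 4958 against 3867, 3559 and 4151. Neither overlapped, and Perp, the highest of the list, did, with 57026, 33716 and 61625 against 54047, 66082 and 95051. EMT and invasion genes were higher in 17 of 22, 2 without overlap, with a median of 0.38 (0.18 to 0.92 on leaving out single libraries). Fibronectin, Fn1, had 874, 629 and 775 against 3733, 1558 and 3018 normalized counts, a log2 difference of 1.79 (limma adjusted p = 0.651), and the matrix protein Tgfbi 1109, 1378 and 1738 against 2074, 2579 and 3241. The protease Mmp14, the highest of the list, had 1999, 8254 and 3947 against 4229, 4757 and 4028 and overlapped. Squamous and cornified envelope genes were lower in 17 of 28, with a median of -0.35 (-0.73 to 0.07 on leaving out single libraries, above 0 without CT128). The small proline-rich genes Sprr2a1, Sprr2a2 and Sprr2f led this list, and they share sequence, so that their reads may be divided among copies. Sprr2a1 had 40249, 34762 and 33929.5 against 23282, 20928 and 13329, Sprr2a2 2262911, 1792685 and 2818559 against 1295526, 997164 and 1247579, and Sprr2f 329846, 160882 and 214286 against 131511, 40722 and 162311. The first 2 were without overlap.

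Antigen presentation genes were higher in 17 of 20, with 0 without overlap and a median of 0.66 that ran from -0.19 to 1.47 on leaving out single libraries and was below 0 without CT149. H2-Ab1, a class II chain, had 7174, 4658 and 19281 normalized counts in the luminal libraries and 34946, 10305 and 53846 in the basal-like ones, and H2-Eb1 4264, 1739 and 7360.4 and 15629.9, 5048 and 22675. Each was higher in all 3 assumed pairs, although the groups overlapped because CT148 exceeded CT144. The class I gene H2-D1, the highest of the list, had 64742, 52367 and 232302 against 51648, 39882 and 280871, with a log2 difference of -0.15 that became 0.069 with quantile normalization. The summed level of interferon-induced genes was 43507, 52446 and 188072 in the luminal libraries and 30416, 37550 and 268072 in the basal-like ones, with CT148 and CT149 far above the rest. The GTPase Gbp3 had 2.25, 309 and 4311 against 378, 306 and 5954. Of the 30 genes 10 were higher, with a median of -0.24 that ran from -0.96 to 0.41 on leaving out single libraries and was above 0 without CT148, CT129 or CT144, and Isg20, with 2348, 2354 and 2337 against 2004, 785 and 1428, was without overlap. Among inflammatory cytokines and chemokines 17 of 29 were higher, with a median of 0.09 (-0.22 to 1.09 on leaving out single libraries, below 0 without CT128). Il18 had 7286, 9557 and 4165 against 2841, 3383 and 1046 normalized counts, and the receptor antagonist Il1rn 6566, 6557 and 6957 against 4574, 2648 and 4555. Both were lower in the basal-like domain without overlap, whereas the alarmin Il33, the highest of the list, had 15977, 56943 and 22050.2 against 18353, 74400.4 and 17837 and overlapped.

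Markers of other cell types also differed in level. T and cytotoxic lymphocyte markers were higher in 20 of the 21 tested, of 24 listed, 6 without overlap, with a median of 2.11. On leaving out single libraries, 16 to 21 were higher and the median ran from 0.80 to 3.02, lowest without CT128. Their summed level was 691, 3185 and 4354 in the luminal libraries and 4869.5, 4688 and 11803 in the basal-like ones. Nkg7, a granule protein of cytotoxic cells and the highest of the list, had 4, 351 and 454 against 478, 775 and 1969, Cd3g, a chain of the T cell receptor complex, 119, 161 and 462 against 599, 714 and 848, and Cd2 0, 0 and 111 against 248, 105 and 571. Nkg7 and Cd3g did not overlap between groups, and 0 of the 24 markers were listed at 0 in all libraries. Macrophage and dendritic cell markers were higher in 16 of 20, with a median of 0.86 (0.36 to 1.35 on leaving out single libraries) and sums of 19360.3, 36612 and 56771 against 50363, 25608 and 69129.8. Lyz2, the highest, had 6319, 5814 and 12476 against 15346, 2332 and 10258, Aif1 206, 405 and 721 against 1242, 710.1 and 2165, and Flt3, a receptor of dendritic cells, 4.46, 24.4 and 29.1 against 146, 70.5 and 127. The sums overlapped between groups. Fibroblast markers were higher in 13 of 16, of 20 listed, with a median of 1.38 (0.52 to 2.25 on leaving out single libraries, lowest without CT129) and sums of 70419, 19490.3 and 16538 against 164783, 29708 and 22068. The highest was Sparc, with 29423, 11144 and 9333 against 40012, 9627 and 4141, and the matrix proteins Lum and Fbln2 had 85, 2.96 and 3.29 against 595, 456 and 131 and 17.6, 1.35 and 2.99 against 248, 95.4 and 68.2, both without overlap. CT129 and CT128 held the largest sums of this list, and no marker of the macrophage or fibroblast lists was at 0 in all libraries. Smooth muscle markers were higher in 7 of 9, of 12 listed, with a median of 0.35 (0.18 to 0.74 on leaving out single libraries) and sums of 4757, 3573 and 2964 against 9779, 4981 and 3958, and Acta2 was the highest, with 1166, 1011 and 1365 against 3159, 1271 and 1890.0. Without a filter 10 of 12 smooth muscle markers were higher, with a median of 0.94, and with quantile normalization 5 of 9. Erythrocyte and plasma protein genes were lower in 5 of 5, of 7 listed, 5 without overlap, with a median of -2.45 and sums of 51009, 65309 and 96173 against 34276, 9088 and 7123. Hbb-bs, the highest, had 12820.3, 22295 and 40141 against 11718, 3193 and 3276, and the near-identical Hba-a1 and Hba-a2 had 17272, 19915 and 25120.3 against 9903, 2783 and 1918 and 17084, 19890.2 and 26113 against 10179, 2419 and 1738. Alb was listed at 0 in all 6 libraries. The part of lymphocytes, macrophages, fibroblasts, muscle and blood in the differences of antigen presentation, matrix, cell cycle and heme genes was not tested.

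**Figure D4:**
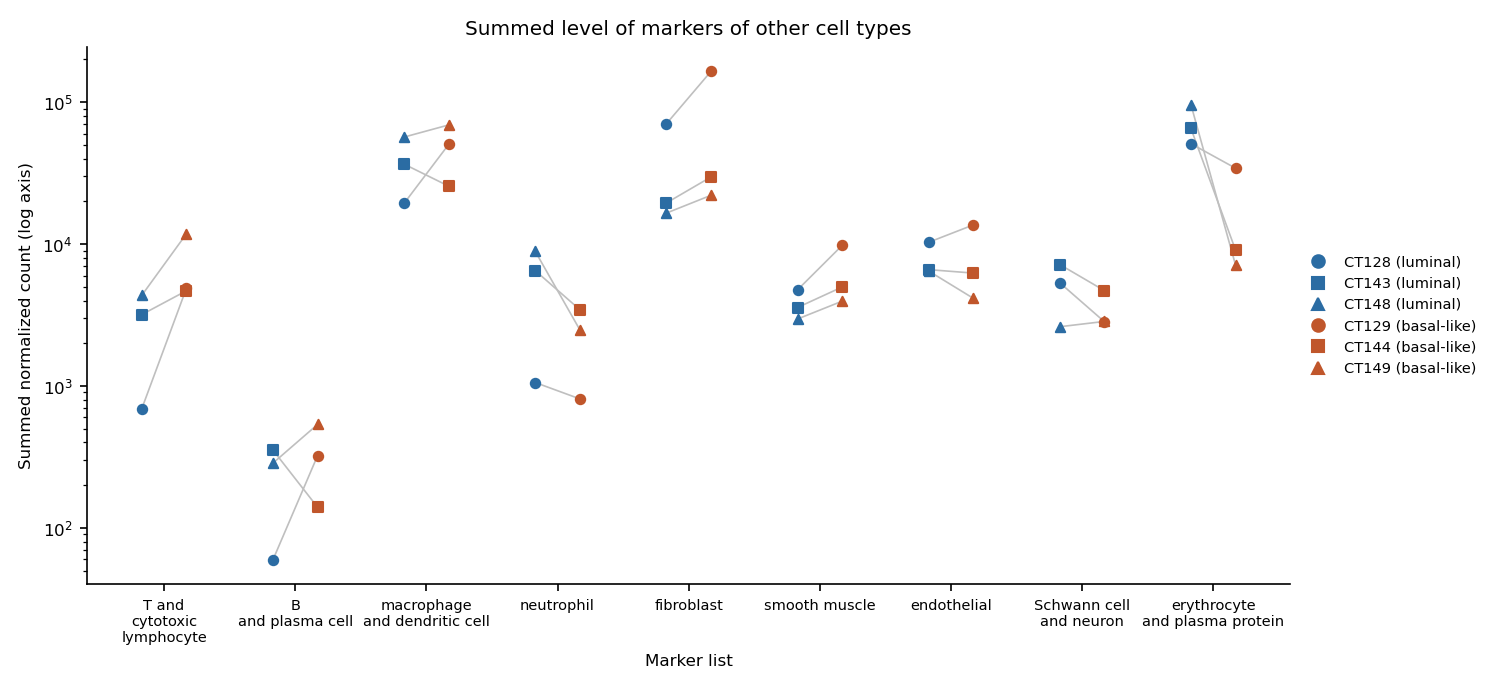
Summed normalized counts (log axis) of the markers of other cell types in each library, with luminal libraries in blue, basal-like libraries in orange and grey lines joining the assumed pairs. The sums of T cell, fibroblast and smooth muscle markers were higher in the basal-like library of every assumed pair, and those of erythrocyte genes were lower.

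In the lists that follow, other than tight junction, glycolysis and Y-linked genes, the sign of the median depended on single libraries. It also turned with quantile normalization for mitochondrially encoded genes, with upper-quartile scaling for NF-kB genes, with array weights for B cell markers, without a filter for cytochrome P450 genes, and without a filter or with one at 50 for Schwann cell markers. Tight junction genes were lower in 13 of 15 (median -0.28, -0.46 to -0.05 on leaving out single libraries), glycolysis and hypoxia genes in 19 of 26 (-0.21, -0.40 to -0.09 likewise), and mitochondrially encoded genes in 11 of 13 (-0.18). Immediate early and AP-1 genes were lower in 13 of 19 (-0.37), retinoid genes in 10 of 15 (-0.37), NF-kB subunits and feedback genes in 11 of 18 (-0.06) and epithelial identity genes in 9 of 13 (-0.15). Cholesterol synthesis genes were higher in 14 of 21 (0.17), Hedgehog, Wnt and BMP genes in 13 of 20 (0.24), EGF and FGF receptors and ligands in 9 of 17 (0.23), and cytochrome P450, UGT and sulfotransferase genes in 14 of 24 (0.10). B and plasma cell markers were higher in 2 of 4 tested of 12, with Cd79a and Pax5 among those listed at 0 in all libraries. Endothelial markers were higher in 4 of 11 (-0.11), Schwann cell and neuron markers in 2 of 5 (-0.10) and neutrophil markers in 2 of 6 (-0.71). Y-linked genes were read in all 6 libraries, with sums of 5627, 5274 and 5389 and 7235, 4938 and 6071, so sex does not tell the assumed pairs apart.

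**Figure D5:**
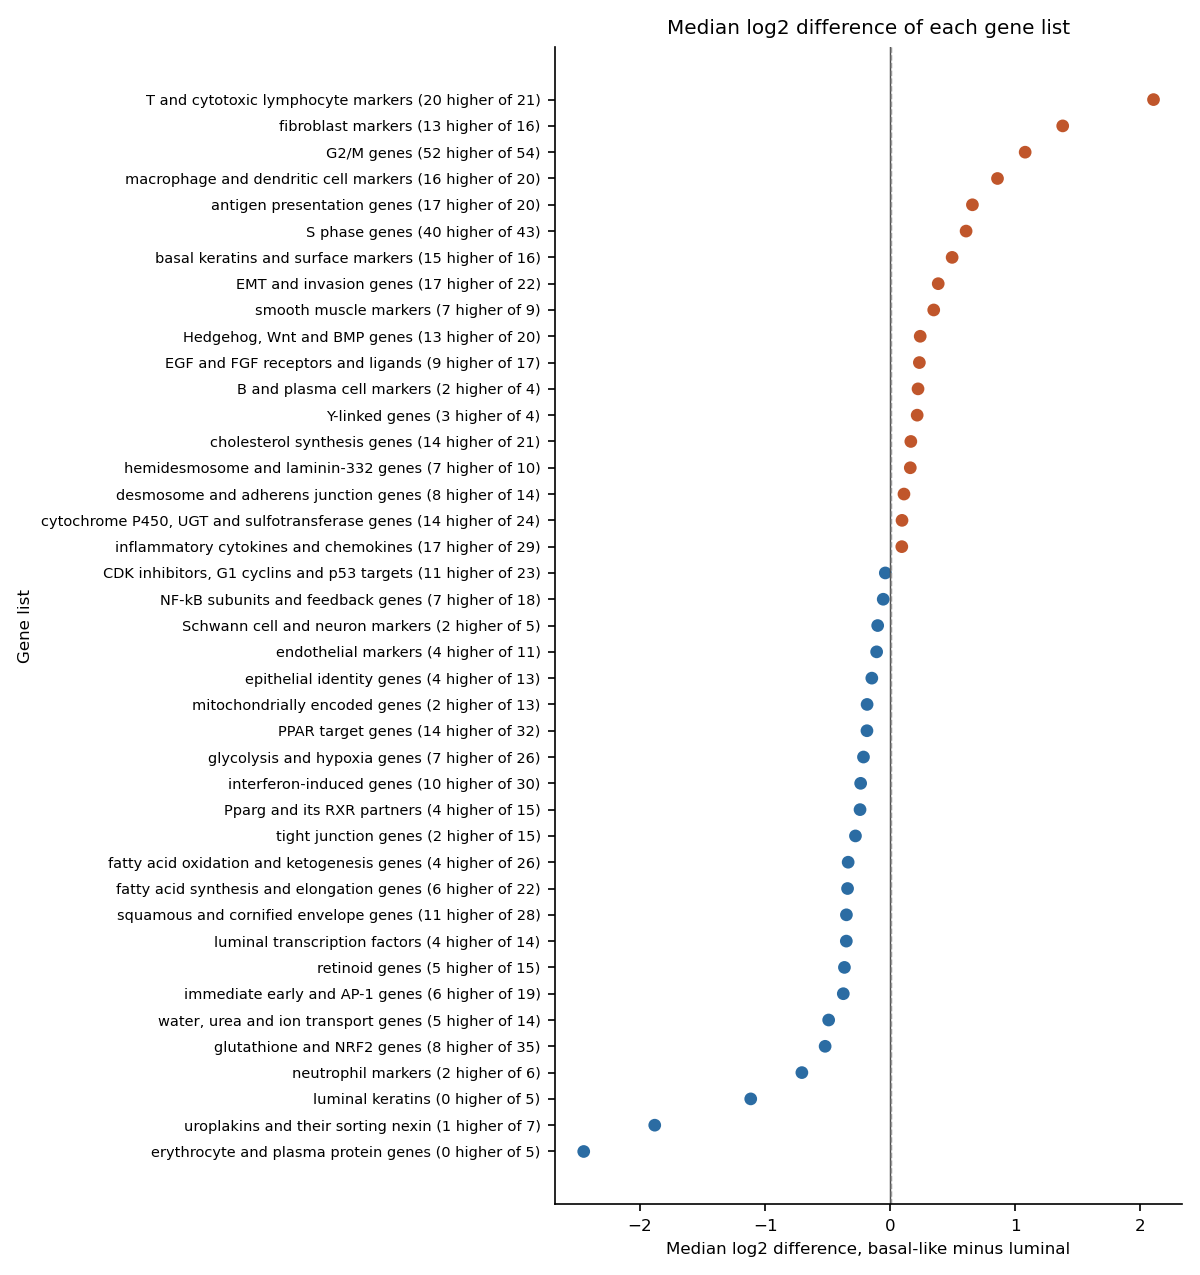
Median log2 difference, basal-like minus luminal, of each gene list, with the number of members above 0 of those tested in brackets and a dashed line at the median of all genes, 0.009. T cell, fibroblast and G2/M lists lie farthest to the right, and erythrocyte genes, uroplakins and luminal keratins farthest to the left.

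Basal tumors of mice labelled wild type give a scale for these values. They were normalized in another table together with the same luminal-domain libraries, so levels are set side by side only as a description. Pparg had 135, 13.7 and 109 normalized counts in the 3 basal tumors, which lies below every basal-like domain library. Upk1b had 41, 8630.1 and 1003 and Upk3b 5.42, 0.965 and 53.9. Ctse had 42.9, 273 and 7.8 and Gata3 350.0, 4098 and 1656. On the other side, Ccna2 had 6452, 3146 and 4027, Hmmr 2766, 2048 and 1929 and Hmgb2 39196, 21718 and 25404. For Ctse, Upk1b, Upk3b and Gata3 all 3 basal tumors lay below the 3 basal-like libraries, for Hmmr and Hmgb2 all 3 lay above them, and for Ccna2 they overlapped. The difference between basal tumors and the basal-like domain was not tested.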

How the data were processed

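The signal values are normalized counts deposited by the authors, one column per library. Per the labels and the study's methods the authors demultiplexed reads with bcl2fastq 2.20, quantified transcripts with kallisto 0.44.0, summed them to genes with tximport and normalized each table with DESeq2 1.18, by factors that differ from gene to gene, so whole reads could not be recovered. The labels list the builds GRCh38 and GRCm38 without saying what each served for, and the transcript index is not given in the sources used here. The authors' own tables of fold changes and p-values were not used. Libraries were assigned to domains from the labels, which do not tie the library codes to replicate numbers.

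The filter kept genes that reached 10 normalized counts in 3 or more libraries. They were fitted by limma 3.58.1 (R 4.3.3) through lmFit and trended eBayes, on log2 values with a pseudocount of 1, and p was adjusted after Benjamini and Hochberg at 0.05. The fit was tested on simulated data, and the outcome is not reported here. Tables and figures were made with Python 3.11.15, pandas 2.3.3, numpy 2.4.6 and matplotlib 3.10.9. Of the symbols, 99.4% matched a mouse gene name. The genes named are those that the study names for the lesions, in each direction the 10 with the smallest p among genes without overlap whose higher group averaged 100 or more (none was called), and of each list described the 2 members with the smallest p and the highest member, except for some that are not reported here. The 42 lists and the members were chosen with earlier results of these data known. X-inactivation transcripts were not analysed here. The pairing was assumed from column order. Deviations from the group means correlated at 0.36, 0.35 and 0.33 across genes in the 3 assumed pairs, and between -0.20 and -0.11 in the others. Alternatives were other pseudocounts (0.5 and 5), no filter, a filter at 50, no trend, robust eBayes, array weights, quantile and upper-quartile scaling, the assumed pairs as a block, and each library left out. The longer promoter window was added after the data had been seen.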

Additional observations from a re-analysis of the deposited data

How the results depend on the processing

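Under 16 alternatives, 6 of which each left out 1 library, the count of called genes remained 0 in limma except without a trend, which called 20 genes (14 higher, 6 lower), and with the assumed pairing as a replicate block, which called 1 gene, lower. The block changed no other call. The cause was not tested. Of 97 named genes followed in the alternatives, 95 kept their direction outside the fits that left out a library. Lyz2, Nkg7 and the genes known from mast cells were not among the 97. In some alternative 4 of the 97 were called: Fgd2, Tmem121 and Adgrg5 without a trend and Ctse with the block. Fgd2, Tmem121 and Adgrg5 lay below 10 normalized counts in every luminal library and passed the filter only through the basal-like libraries. No conclusion is drawn from the calls of Fgd2, Tmem121 and Adgrg5. The log2 difference of Tubb4b turned to 0.039 with quantile normalization and 0.0165 with upper-quartile scaling, and that of H2-D1 to 0.069 with quantile normalization. On leaving out single libraries, 16 of the 97 genes changed direction in at least 1 fit, with log2 differences from -0.0654 to 1.60 for Krt16, -2.07 to 1.19 for Fabp4, -0.56 to 0.53 for Krt15, -0.14 to 0.26 for Col17a1, -0.40 to 0.62 for Mmp14, -0.19 to 0.0839 for Tubb4b, -0.59 to 0.63 for Il33, -0.39 to 4.80 for Gbp3, -1.02 to 0.52 for H2-D1, -0.0792 to 0.47 for Gsto1, -0.0621 to 0.78 for Scd2, -1.20 to 0.43 for Sparc, -0.13 to 0.76 for Kdm5d, -0.0284 to 0.21 for Eif2s3y, -0.51 to 0.0946 for Uty and -0.32 to 0.80 for Epcam. Of 41 list medians 21 kept their sign in every fit. The filter at 50 left out 2 named genes. The share of G2/M promoter windows with the CHR letters depended on the window, 38.8% before the start and 69.4% with the bases after it, the longer window being chosen after the first shares had been seen. The depth reached by each library is not given in the sources used here, and its part in the count of called genes was not examined.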

Other observations

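Outside the lists, 7 genes known from mast cells were chosen after their values were seen, and they were not tested as a group. Mcpt1 and Mcpt2, proteases of mucosal mast cells, had 0, 169.9 and 2.19 and 3.5, 22.2 and 158 normalized counts in the luminal libraries and 2979, 1044 and 1520.2 and 2352, 1017 and 1252 in the basal-like ones, without overlap and not called (limma adjusted p = 0.651 for each, log2 differences 7.68 and 5.82, higher in 3 of 3 assumed pairs). Fcer1a, a chain of the IgE receptor, had 0, 137 and 15.4 against 568, 144 and 366. The other mast cell proteases Mcpt4, Cma1, Tpsb2 and Cpa3 overlapped between groups, with 38.5, 297 and 427 against 481, 467 and 336 for Mcpt4, 86.3, 546 and 549.9 against 1368, 290.2 and 662 for Cma1, 398, 1510.4 and 519 against 455, 600.2 and 555 for Tpsb2 (log2 difference -0.35) and 5.74, 439 and 116 against 543, 143 and 289 for Cpa3. CT143 held by far the highest Tpsb2 value, and the mast cell genes were not examined with single libraries left out.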
